A study of Mus musculus with 2 samples.

Results

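The myosin light chains and the kinases that phosphorylate them were taken as 10 genes, namely the light chain genes Myl1, Myl2, Myl3, Myl4, Myl6, Myl7 and Myl9 and the kinase genes Mylk, Mylk3 and Mylk4. Every probe whose platform gene symbol was one of these names was used. This gave 15 probes for 9 of the 10 genes, out of 41174 probes and 19532 named genes. No probe carried the symbol Mylk3, the light chain kinase of cardiac muscle, so that gene was not analysed here.

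Heart RNA was paired with that of mouse embryonic fibroblasts (MEF), connective-tissue cells of the embryo kept in culture, on 2 two-colour Agilent arrays. The hearts, numbered 1 and 2, were untreated and not cultured and their RNA carried Cy3, while the MEF were grown in DMEM with fetal serum and their RNA carried Cy5 on both arrays. The labels give no strain, age or sex, no number of animals, and no count of MEF preparations. P-values thus reflect only how far these arrays differ, a difference that may be technical, and not how MEF cultures vary. Each deposited value was read as the log2 ratio of heart over MEF, so that 1 stands for a 2-fold higher signal in heart. That direction is likely rather than stated. The series text says that heart is described relative to MEF, and 15 of 15 cardiac genes outside the family had positive values, with a median of 6.33 for heart-1 and 6.32 for heart-2. Of 10 MEF and fibroblast markers, 10 were negative, with medians of -4.89 and -4.90. These lists set the sign and their direction is not a result. The dyes were not exchanged, so a probe's preference for one dye stays in its ratio. Channel intensities were not used here, so whether MEF signal stood above background was not judged, and no probe's level can be set against another's. In whole tissue, fewer cells of a type and less RNA per cell cannot be told apart.

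A conventional myosin holds a pair of heavy chains, and the neck of each carries an essential and a regulatory light chain. Essential chains stiffen the lever arm, and regulatory chains are the ones that kinases phosphorylate. In smooth muscle and non-muscle cells this phosphorylation, made by a calcium-calmodulin-dependent kinase and removed by myosin phosphatase, switches contraction on and off. In heart muscle, thin-filament proteins switch contraction and light chain phosphorylation tunes its force. Separate genes encode the chains of ventricle, atrium, fast skeletal muscle, and smooth muscle or non-muscle cells.

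The family split into 2 blocks. The chains of striated muscle, Myl1, Myl2, Myl3, Myl4 and Myl7, and the kinase gene Mylk4 were higher in heart, with mean log2 ratios from 5.68 to 9.73. The smooth muscle and non-muscle chains Myl6 and Myl9 and the kinase gene Mylk were lower in heart, with means from -1.94 to -1.23. All 9 measured members passed the test, 6 higher and 3 lower in heart. Over all genes 33.8% were called higher and 39.3% lower, so a call alone says little about a gene here, and size says more. These shares are the background for every list count below. A log2 ratio of at least 5 on both arrays was reached by 6 of the 9 members and by 1.29% of all genes. The cutoff of 5 was not a planned test and lies below the lowest of these 6. The members were chosen with earlier results of these data known, so this count is a description and not a test. The median of the members was 6.24, and that of all genes -0.04. Tests were limma fits of the mean ratio against 0 over all 19532 genes, two-sided, with Benjamini-Hochberg adjustment and a threshold of 0.05 on the adjusted p. Its smallest adjusted p, 0.00136, was shared by many genes, and with 2 arrays it ranks none of them.

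**Figure D1:**
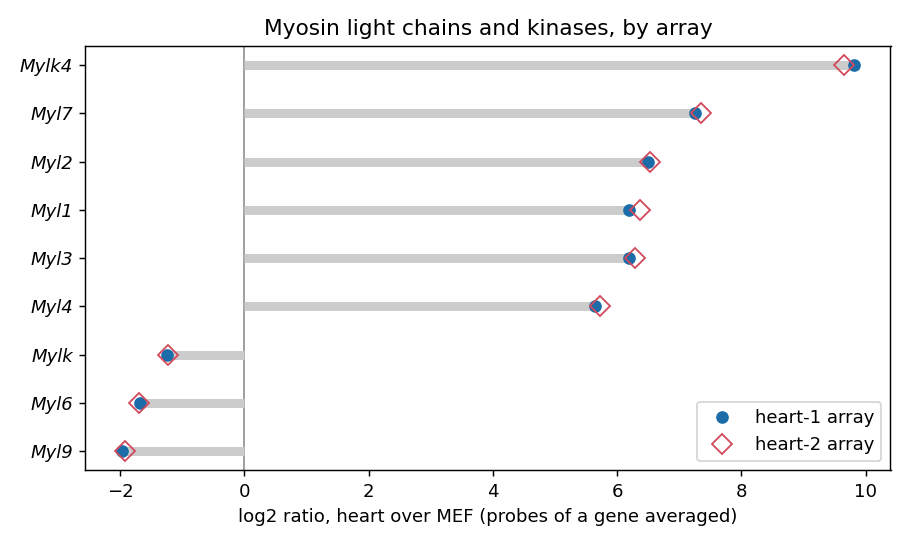
Log2 ratio of heart over MEF (horizontal axis) for the 9 measured genes of the family, with probes of a gene averaged. Circles are the heart-1 array, open diamonds the heart-2 array and grey bars the mean of both. Of these genes 6 lie above 5 and 3 lie below -1 on both arrays.

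Promoter sequence is shown for the 4 measured members whose window held a CArG box, because they fall on both sides of the split. The CArG box is the site read by serum response factor, a transcription factor of muscle and of cytoskeletal genes. Windows run from 250 bases before a gene's start to 50 bases from it, and come from RefSeq on build GRCm38.p6. Myl3 (chr9:110763428-110763727, + strand) and Myl7 (chr11:5898733-5899032, - strand) were higher in heart. Myl6 (chr10:128492960-128493259, - strand, one of its 2 windows) and Myl9 (chr2:156775214-156775513, + strand) were lower. Capitals mark the CArG box in each, read 5′ to 3′ along the gene.
Myl3: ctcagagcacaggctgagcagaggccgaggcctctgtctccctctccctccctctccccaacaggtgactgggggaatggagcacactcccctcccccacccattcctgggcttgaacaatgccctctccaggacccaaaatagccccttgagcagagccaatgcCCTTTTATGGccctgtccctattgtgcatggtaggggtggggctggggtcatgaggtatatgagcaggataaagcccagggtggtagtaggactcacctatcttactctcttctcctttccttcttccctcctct
Myl7: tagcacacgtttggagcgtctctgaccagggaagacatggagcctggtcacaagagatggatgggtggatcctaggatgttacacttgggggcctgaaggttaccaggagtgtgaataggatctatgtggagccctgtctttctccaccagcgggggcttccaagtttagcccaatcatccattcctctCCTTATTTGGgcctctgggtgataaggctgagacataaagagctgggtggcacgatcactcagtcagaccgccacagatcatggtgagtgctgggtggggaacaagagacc
Myl6: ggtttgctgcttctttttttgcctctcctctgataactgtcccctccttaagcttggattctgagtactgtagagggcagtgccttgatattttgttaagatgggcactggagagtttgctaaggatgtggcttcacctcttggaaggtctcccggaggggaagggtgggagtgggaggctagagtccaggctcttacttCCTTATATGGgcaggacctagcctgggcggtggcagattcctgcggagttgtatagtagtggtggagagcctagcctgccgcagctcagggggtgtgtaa
Myl9: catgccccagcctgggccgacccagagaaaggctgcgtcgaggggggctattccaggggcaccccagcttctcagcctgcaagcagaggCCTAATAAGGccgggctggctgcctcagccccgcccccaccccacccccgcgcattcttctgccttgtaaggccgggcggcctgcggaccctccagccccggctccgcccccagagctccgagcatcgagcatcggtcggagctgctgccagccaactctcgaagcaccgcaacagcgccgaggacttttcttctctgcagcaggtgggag
The boxes read CCTTTTATGG in Myl3, CCTTATTTGG in Myl7, CCTTATATGG in Myl6 and CCTAATAAGG in Myl9. They began 85, 61, 50 and 161 bases before the start, in that order.

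The 9 measured members had 11 windows in all, since Myl2 and Myl6 have 2 each. A CArG box was in 4 of the 11 windows and in 1.63% of all 32851 promoter windows of the same length. The MEF2 site, named for a muscle transcription factor family, was searched only in a strict form. That form is CTA, then 4 bases that are each A or T, then TAG. It was in 0 of 11 windows and in 0.557% of all, and looser forms of the site were not searched. The M-CAT motif CATTCC, read by TEAD factors, was in 4 of 11 windows, those of Myl1, Myl3, Myl7 and Mylk, against 14.7% of all windows. The GATA motif AGATAA was in 1 of 11 windows, which belongs to Myl2, against 11.2% of all windows. The E-box CANNTG was in 8 of 11 windows and in 72.3% of all. TATAAA was in 2 of 11 windows, 1 of Myl1 and 1 of Myl2, against 13.6% of all. Both matches lay on the strand opposite to the gene, beginning 95 and 216 bases before the start. Both strands were searched, and none of the matches in the members' windows overlapped another. A match is a description of letters and not a bound site.

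Among the regulatory chains, the atrial and ventricular ones were both far higher in heart. Myl7 encodes the atrial regulatory chain, and its 1 probe (A_51_P246345) read 7.26 with heart-1 and 7.36 with heart-2. Its mean of 7.31 ± 0.07 (SD, n = 2) is a 159-fold higher signal in heart and ranked 31 of 19532 genes from the top. Myl2 encodes the regulatory chain of ventricle and slow skeletal muscle. It also had 1 probe (A_51_P392459), which read 6.50 and 6.54. The mean of 6.52 ± 0.03 is 91.6-fold higher in heart, rank 81, and the adjusted p of both genes was 0.00136 by limma. The arrays did not overlap between Myl7 and Myl2, whose ratios were 0.79 ± 0.04 apart. That gap is between ratios of different probes, and shows unequal ratios to MEF rather than unequal amounts in heart.

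Myl9, the regulatory chain of smooth muscle and many non-muscle cells, lay on the other side. Its 1 probe (A_51_P308298) read -1.97 and -1.91, a mean of -1.94 ± 0.04 and a 3.84-fold lower signal in heart (limma adjusted p = 0.00145). It had the lowest ratio of the family, yet 1597 of 19532 genes stood at or below it. The distance of Myl9 from 0 is thus far smaller than that of the cardiac chains.

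The essential chains split the same way. Myl3 encodes the essential chain of ventricle and slow skeletal muscle, and it read 6.20 and 6.29, a mean of 6.24 ± 0.07 or 75.7-fold higher in heart. Its 2 probes disagreed in size. One (A_51_P177210) read 7.15 and 7.36, and the other (A_51_P434910) read 5.24 and 5.21. Both are annotated to the same transcript, and the gap of 2.03 between their means is far larger than the difference of either between arrays.

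Myl4 encodes the essential chain of atrium and of embryonic muscle. It read 5.64 and 5.73, a mean of 5.68 ± 0.06 or 51.4-fold higher in heart, rank 169. Its probes lay closer together than those of Myl3, with means of 5.49 and 5.88. Myl3 and Myl4 were 0.56 apart on both arrays, which is less than the spread between the Myl3 probes.

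Myl1 encodes the essential chain of fast skeletal muscle, in a longer and a shorter form made from separate starts. It read 6.19 and 6.37, a mean of 6.28 ± 0.13 or 77.6-fold higher in heart, rank 97. The family's largest probe gap was here. One probe (A_51_P416858) read 7.52 and 7.72, the other (A_52_P273120) read 4.86 and 5.02, and the 2 are annotated to different Myl1 transcripts. Their means were 2.68 apart, against a median probe range of 0.95 over the 8511 genes with several probes. Whether either probe also binds another light chain's RNA was not tested.

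Myl6, the essential chain of smooth muscle and non-muscle cells, was lower in heart at -1.67 and -1.69, a mean of -1.68 ± 0.02 or 3.21-fold (limma adjusted p = 0.00151). Its probes read -1.69 and -1.73 in one case and -1.65 and -1.65 in the other, the closest agreement of any member with several probes. Myl1, Myl3 and Myl4 each had an adjusted p of 0.00136.

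**Figure D2:**
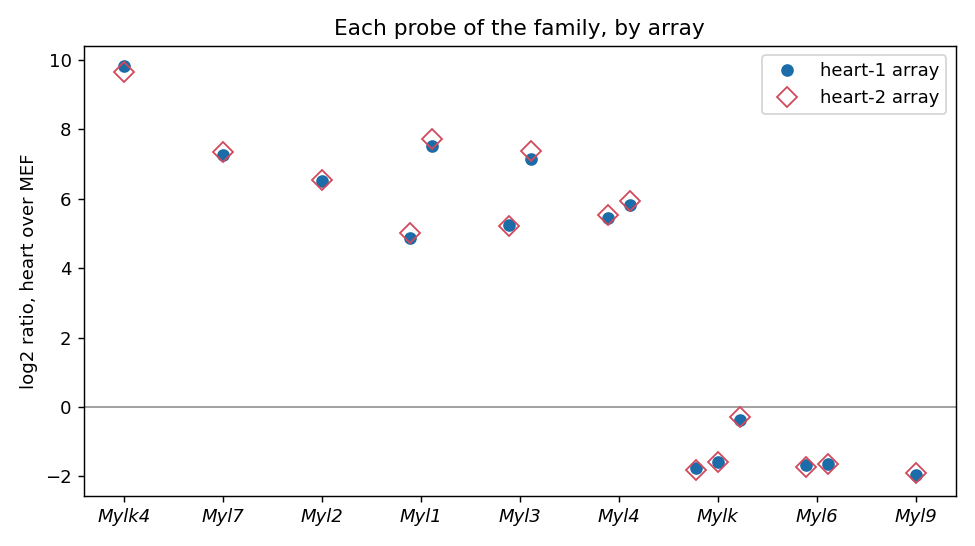
Log2 ratio of heart over MEF (vertical axis) for each of the 15 probes of the family, grouped by gene. Circles are the heart-1 array and open diamonds the heart-2 array. The probes of Myl1, Myl3, Myl4 and Mylk stand further apart than the arrays do, and those of Myl6 nearly coincide.

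The measured kinases lay on opposite sides of 0. Mylk4 encodes a less studied member of the light chain kinase family, and its 1 probe (A_52_P1011632) read 9.81 with heart-1 and 9.65 with heart-2. The mean of 9.73 ± 0.11 is an 850-fold higher signal in heart and ranked 4 of 19532 genes. It exceeded the next member, Myl7, by 2.42 ± 0.18. Mylk4 and Myl6 were the members with a lower value on the heart-2 array than on the heart-1 array.

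Mylk encodes the calmodulin-dependent light chain kinase of smooth muscle and non-muscle cells, and was lower in heart. It read -1.23 and -1.22, a mean of -1.23 ± 0.01 or 2.35-fold lower (limma adjusted p = 0.00190). That small SD hides a wide spread of probes. Of its 3 probes, A_52_P145912 read -1.76 and -1.80, A_52_P575217 read -1.58 and -1.59, and A_51_P272407 read -0.37 and -0.28. The first pair are annotated to the RefSeq transcript and the last to a cDNA clone. The clone's probe had an adjusted p of 0.0277 over all 41174 probes, of which 66.5% were called, and did not pass after the arrays were centred on their medians (adjusted p = 0.24). The median of the 3 probes was -1.58.

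In order of their ratios the members ran Mylk4, Myl7, Myl2, Myl1, Myl3, Myl4, Mylk, Myl6 and Myl9. Only Myl1 and Myl3 overlapped between arrays among neighbours in this order, at a gap of 0.04 ± 0.06. The gap of 0.24 ± 0.10 between Myl2 and Myl1 is smaller than the gap between the Myl1 probes, so the order of Myl2, Myl1, Myl3 and Myl4 depends on which probes are used. The places of Myl7, Mylk and Myl6 do so too, since the higher Myl1 probe (7.62) lay above Myl7 and the lowest Mylk probe (-1.78) below Myl6. From Myl4 down to Mylk the gap was 6.91 ± 0.06. The members differed between arrays by 0.01 to 0.18, and the median difference over all genes was 0.09.

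**Figure D3:**
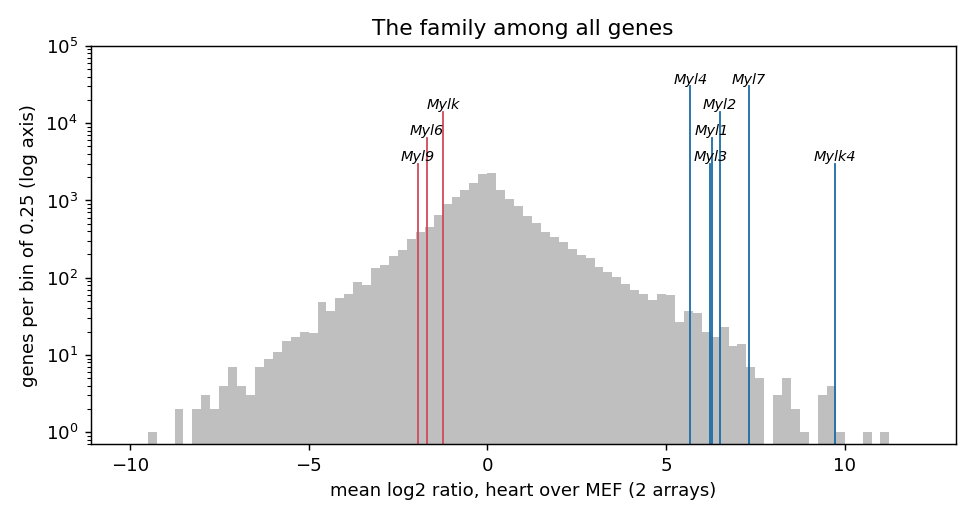
Number of genes per bin of 0.25 (vertical log axis) against the mean log2 ratio of heart over MEF, for all 19532 genes in grey. Lines mark the 9 measured members, blue where higher and red where lower in heart. The 6 higher members lie in the sparse upper tail and the 3 lower ones on the shoulder of the distribution.

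Markers of the muscle types that use these chains went with the members to different degrees, and their part in the result was not tested. Ratios hold no level within heart or within MEF, so no summed level of a marker list can be given. Of 10 atrial markers 7 were higher in heart, 2 were lower and 1 did not pass, with a median of 1.86 (1.85 and 1.87 by array). Sln, the sarcoplasmic calcium pump inhibitor sarcolipin, was at 6.96 ± 0.09 and the growth factor gene Bmp10 at 3.91 ± 0.46. The natriuretic peptide gene Nppa, which is also in the sign-setting set, was at 5.50 ± 0.05, with probe means of 4.12 and 6.88. The potassium channel gene Kcnj3 was at 4.25 ± 0.45, with probe means from 1.71 to 6.93. Against these, the nuclear receptor gene Nr2f1 was at -3.35 ± 0.58 and Dkk3 at -1.42 ± 0.03, and Nr2f2 did not pass at -0.06 ± 0.19. All 5 ventricular markers were higher, with a median of 2.45. Among them Myh7, at 5.77 ± 0.05, is also in the sign-setting set, so its direction is not a result. The homeobox gene Irx4 was at 4.90 ± 0.05 and Hey2, a Notch target, at 2.36 ± 0.29. The potassium channel subunit gene Kcne1 was at 2.45 ± 0.19, a mean of probes at 0.10 and 4.80. Without shared variance the calls of Kcnj3, Bmp10, Nr2f1, Kcne1 and Hey2 were lost, with adjusted p between 0.0738 and 0.121. The call of Kcne1 was also lost with its probe of smallest absolute mean (limma adjusted p = 0.273).

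Skeletal muscle markers were divided. Of 13 such genes 7 were higher in heart, 5 were lower and 1 did not pass, with a median of 0.39. The fast myosin heavy chain gene Myh4 was at 5.33 ± 0.19, with probe means of 4.52 and 6.15. Atp2a1, the fast muscle calcium pump, was at 3.23 ± 0.10, with probe means of 0.997 and 5.46. The slow troponin gene Tnnt1 was at 2.94 ± 0.06 and the calsequestrin gene Casq1 at 2.00 ± 0.23. Against these, the fast troponin gene Tnnt3 was at -1.40 ± 0.08, the fast actinin gene Actn3 at -1.83 ± 0.03 and the muscle regulator Myod1 at -1.04 ± 0.05. Without shared variance the calls of Myh4, Casq1, Tnnt3 and Myod1 were lost, with adjusted p between 0.0503 and 0.0931, and that of Myod1 also against a 2-fold change (adjusted p = 0.552). Mylpf, the regulatory chain that partners Myl1 in fast skeletal muscle, read 0.06 and 0.08 and did not pass.

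The 10 smooth muscle markers were divided, with 5 higher and 5 lower in heart and a median of -0.57. Tagln and Cnn1, which encode the actin-binding proteins transgelin and calponin, were at -4.76 ± 0.02 and -4.44 ± 0.02, further below 0 than Myl9 and Mylk. Myh11, the smooth muscle heavy chain, was at 1.61 ± 0.02, and desmin, Des, which heart muscle also makes, at 3.95 ± 0.02. The actin-binding protein gene Synpo2 was at 2.84 ± 0.06, though the means of its 4 probes ran from -0.17 to 5.52.

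The remaining light chain and kinase genes stayed nearer 0 than the members of the striated block. Of 9 such genes 6 were measured, of which 3 were higher in heart, 0 were lower and 3 did not pass, with a median of 0.64. The number lower was also 0 at an unadjusted limma p under 0.05. Mylk2, the skeletal muscle kinase, read 2.49 and 1.96, a mean of 2.22 ± 0.38 (limma adjusted p = 0.00816). Myl10, another regulatory chain, read 1.78 and 2.56. Neither passed without the variance shared across genes (adjusted p = 0.12 and 0.16). Myl12a, a regulatory chain of non-muscle cells, was steady at 1.21 and 1.20. Its close relative and chromosomal neighbour Myl12b read -0.03 and 0.03 and did not pass. The 2 probes of Myl12b were called in opposite directions, with means of -0.42 and 0.43 (limma adjusted p = 0.0127 and 0.0207). These chains are near-identical, so their probes may share RNA. Myl6b, a chain of slow muscle and non-muscle cells that lies next to Myl6 on chromosome 10, read 0.32 and -0.28 and did not pass. Its probes disagreed. One (A_51_P476725) read 0.76 and 0.90 and was called higher (limma adjusted p = 0.00863). The other (A_52_P578692) read -0.12 and -1.46 and did not pass (limma adjusted p = 0.261).

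The heavy chains were divided as well. Of 13 measured heavy chain genes 7 were higher in heart, 3 were lower and 3 did not pass, with a median of 1.33. Over all genes 33.8% were higher and 39.3% lower. Of those not passing, Myh13 and Myh15 each had 1 probe, which lay within the near-constant ratios described at the end. The cardiac chains Myh6 and Myh7 were at 6.74 ± 0.06 and 5.77 ± 0.05, though both belong to the set that fixed the sign of the ratio. The non-muscle chains Myh9 and Myh10, which carry Myl6 with Myl9 or Myl12 chains, were at -2.29 ± 0.07 and -2.67 ± 0.10. Myh14, the remaining non-muscle heavy chain, stood apart at 3.77 ± 0.03. The skeletal chain gene Myh2 was the other lower one at -0.34 ± 0.01, and Myh1 did not pass at a mean of -0.38. For Myh10 the probe means ran from -4.56 to 0.02, and its call was lost without shared variance (adjusted p = 0.0519). The probe at 0.02 lay within the near-constant ratios described at the end, and the other Myh10 probes had means of -4.56 and -3.48. With near-constant probes left out, the Myh10 mean was lower still and its call was kept.

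The phosphatase that removes the light chain phosphate was mixed. Of its 10 genes 5 were higher, 2 were lower and 3 did not pass, with a median of 0.57, against 33.8% higher and 39.3% lower over all genes. Without shared variance 1 of the 10 was called higher, and Ppp1r12b, Ppp1r14c and Ppp1r16b were among the calls lost, with adjusted p between 0.0511 and 0.0903. Ppp1cb, the catalytic subunit, read 2.24 and 2.19, a mean of 2.21 ± 0.03. Ppp1r12b, the targeting subunit of striated muscle, was at 2.38 ± 0.11, with 4 probes between 0.55 and 4.28. Its smooth muscle and non-muscle counterpart Ppp1r12a was at -0.12 ± 0.004 and did not pass. The 2 probes of Ppp1r12a were called in opposite directions, with means of -0.52 and 0.28 (limma adjusted p = 0.00899 and 0.0262). Ppp1r12c was at 0.28 ± 0.12, also not passing. Among the phosphatase inhibitors, Ppp1r14c was at 2.75 ± 0.10, a mean of probes at 6.54, 4.45, 0.0021 and -0.00068. The lowest pair of these probes lay within the near-constant ratios described at the end. Ppp1r14b was at -1.52 ± 0.04, and Ppp1r14a, the smooth muscle inhibitor, did not pass at 0.14 ± 0.02. Ppp1r16b, a related targeting subunit, was at 1.69 ± 0.19. The call of Ppp1r16a (-0.38) was lost after centring, which moved its mean only to -0.35, and against a 2-fold change.

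Calmodulin, which activates Mylk, showed no common direction. Of 9 measured calmodulin and calmodulin-dependent kinase genes 4 were higher in heart, 3 were lower and 2 did not pass, with a median of 0.10. Calm2 read -0.96 and -0.90 and Calm3 read 0.49 and 0.49. Both encode the same protein, and the 3 Calm3 probes had means from -0.90 to 1.75. Camk2a was the highest of the list at 3.85 ± 0.07, over probes at 2.64 and 5.06, and Camk2b was at 1.33 ± 0.11. Camk4 and Camkk2 were at -1.18 ± 0.22 and -1.06 ± 0.01. The calls of Calm2, Camk2b and Camk4 were lost without shared variance, with adjusted p between 0.0538 and 0.127, and those of Calm2, Calm3, Camk4 and Camkk2 against a 2-fold change.

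**Figure D4:**
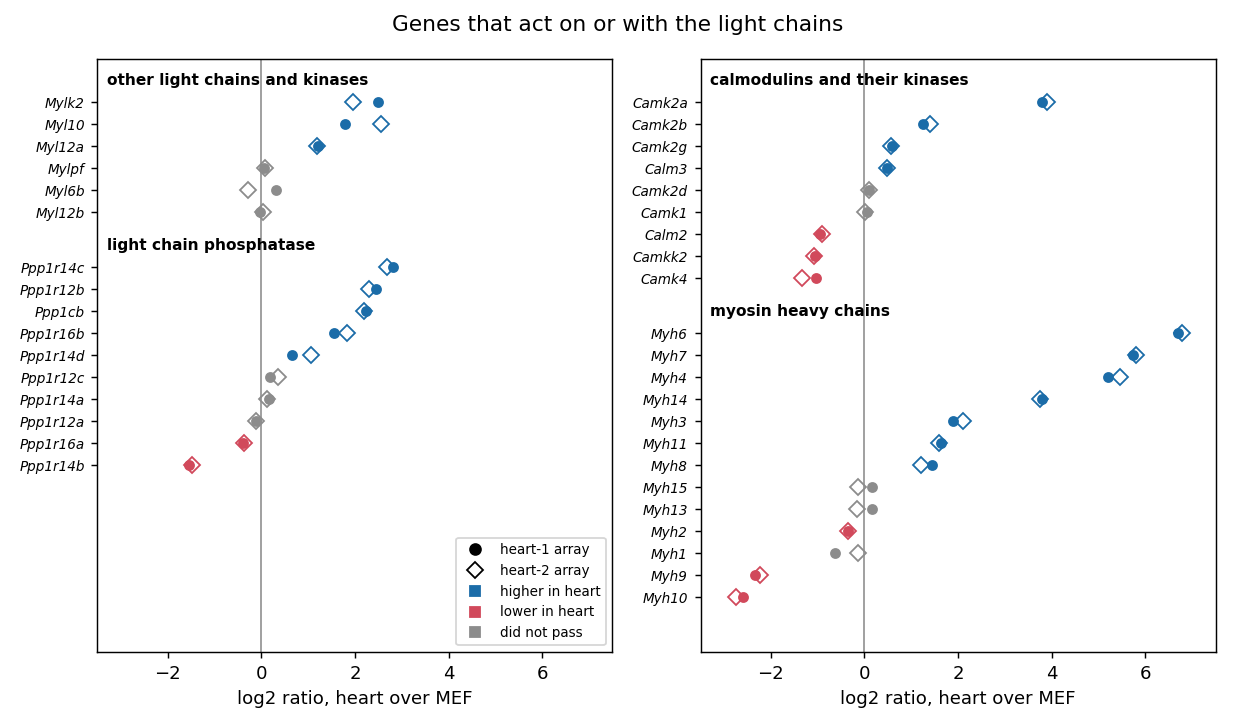
Log2 ratio of heart over MEF (horizontal axis) for genes that act on or with the light chains, in 4 lists. Circles are the heart-1 array and open diamonds the heart-2 array, and colour gives the limma call. The heavy chains reach from -2.67 to 6.74.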

How the data were processed

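The values were deposited by the authors as 1 log2 ratio per probe and array; per the submitters' processing notes the scans were read with Agilent Feature Extraction, while the sources used here name no background correction, normalization, filter or log base. The log2 scale was inferred from the range of -11.62 to 11.27. The array medians were 0.07 and -0.14, so centring is unknown. Probes were named from the platform annotation (32664 with 1 symbol, 45 with several, 8465 with none), and the identifiers of all 9 measured members matched RefSeq. Values of probes sharing a symbol were averaged within each array, and limma 3.58.1 (R 4.3.3) fitted an intercept with lmFit and eBayes; each gene has 1 residual degree of freedom, with a prior of 1.25 degrees and an SD of 0.066. Probes were fitted likewise. The fit was tested on simulated data. The small number of arrays limits precision. Promoters were searched in Python 3.11.15. Errors are SDs of the 2 arrays.

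The members and lists were chosen with earlier results of these data known. Named are all members, the 4 genes furthest from 0 in each list, up to 3 against its majority, and a set of key genes; the 2 lists that set the sign of the ratio are given by counts, apart from genes they share with other lists, and the smooth muscle list had no majority. There were 12 alternatives, on probe summary, centring, scaling, quantile normalization, the variance prior, a 2-fold threshold, probes of near-constant ratio and single arrays. 1 gene list of the plan is not reported here.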

Additional observations from a re-analysis of the deposited data

How the results depend on the processing

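All 9 members kept their direction and their call under the alternatives with a test, and their sign on each array alone. No paired analysis was possible because there is 1 group. Their highest adjusted p was 0.0421, for Myl1 without shared variance. The choice of probe moved Myl1 most, from 4.94 to 7.62, and moved Mylk from -1.78 to -0.32. On each array alone, member values are those in the text. Centring raised the median of all genes by 0.04, and its variance prior took unlimited degrees of freedom, so its very small p-values are not printed. For genes, that changed prior also enters the calls lost after centring. Near-constant ratios, from 0.12 to 0.20 on heart-1 and -0.20 to -0.10 on heart-2, held 3333 probes on both arrays and 0 of the members.

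Over all genes, 2921 were higher and 3210 lower without shared variance, and 2947 and 2850 against a 2-fold change. Taking the probe with the largest absolute mean, 5 other light chain and kinase genes were higher. Without shared variance 1 of these genes, 1 phosphatase gene and 4 heavy chain genes were higher, and 1 calmodulin-list gene was lower. Against a 2-fold change 2 calmodulin-list genes were higher, and 1 phosphatase and 0 calmodulin-list genes were lower. Centred, or centred and scaled, 1 phosphatase gene was lower. With the probe of smallest absolute mean, 1 other light chain and 1 heavy chain gene were lower. Under that setting these values changed sign: Camk2b -0.21, Myh10 0.019, Myl12b -0.42, Myl6b -0.79, Ppp1r12a 0.28, Ppp1r14c -0.00068, Synpo2 -0.17 and the calmodulin-list median -0.027. With the probe of largest absolute mean Nr2f2 was at 0.98. On single arrays Myl12b was at -0.027 and 0.034, Myl6b at 0.32 and -0.28, and Nr2f2 at -0.19 and 0.073. The cause was not tested beyond the choice of probe or array itself. Of 684 values of other named genes under alternatives, 30 lost their call, 4 gained one and 11 changed sign. Counts have no value on 1 array.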
